A study of Mus musculus with 12 samples.

Results

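The 9 genes described here carry the signal from phosphoinositide 3-kinase (PI3K) to the FOXO transcription factors and to mTORC1, or hold it back. They were taken by symbol from the deposited tables: Foxo1, Foxo3, Foxo4, Pik3cd, Akt1, Pik3ip1, Inpp5d, Tsc1 and Tsc2, 9 of the 24982 symbols listed. All 9 were found and passed the filter on low values in each of the 3 comparisons. The libraries came from polyadenylated RNA of B lymphocytes from the spleens of mice 6 weeks old, with 4 libraries in each of 3 genotypes. WT mice were C57BL/J6 and carried no transgene. Eμ-Myc mice carried Myc under the immunoglobulin heavy chain enhancer, which drives it in the B lineage. Eμ-Myc; PRPS2 KO mice, called the knockout group below, carried the same transgene and lacked PRPS2, 1 of the synthetases that supply phosphoribosyl pyrophosphate for making nucleotides. The labels call the 4 libraries of a genotype biological replicates, and the sources used here give neither the sex of the mice nor how the knockout was made. The design asked what the transgene changed in B cells, and whether loss of PRPS2 changed that programme.

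In a B cell, PI3K is recruited to the membrane when the antigen receptor is engaged, and makes a phospholipid that draws AKT there. AKT phosphorylates FOXO factors, which are then bound by 14-3-3 proteins and kept out of the nucleus, so their activity is set largely at the protein level, which RNA does not report. In the nucleus FOXO1 turns on genes of B-cell development, homing and quiescence, among them the recombinase genes and the interleukin 7 receptor. AKT also inactivates the TSC1–TSC2 complex, which otherwise keeps mTORC1, a kinase complex that promotes growth, switched off. Phosphatases and adaptor proteins act as brakes at several of these steps.

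Promoter sequences are shown because 6 of the genes differed between WT and Eμ-Myc, and because FOXO factors and MYC each bind a short DNA word. The RefSeq promoter table used here (GRCm38.p6) matched 8 of the 9 genes, all but Foxo4, with 11 start sites, and the 250 bases upstream of each were searched on both strands for the FOXO heptamer GTAAACA and the E-box CACGTG, which is the word bound by MYC. Over 32851 mouse promoters, 3.17% held the heptamer and 6.02% the E-box in a window of this length. The single match among the 11 windows was a heptamer before the upstream start site of Akt1, and no window held the E-box. A match of letters is a description and does not show binding. The Akt1 window, the window of Foxo1 as the most reduced FOXO factor and that of Pik3ip1 as the reduced brake are given 5′ to 3′ on the strand of the gene, with capitals marking the heptamer, here read on the opposite strand and starting 161 bases upstream.
Akt1, chr12:112674885-112675134, minus strand: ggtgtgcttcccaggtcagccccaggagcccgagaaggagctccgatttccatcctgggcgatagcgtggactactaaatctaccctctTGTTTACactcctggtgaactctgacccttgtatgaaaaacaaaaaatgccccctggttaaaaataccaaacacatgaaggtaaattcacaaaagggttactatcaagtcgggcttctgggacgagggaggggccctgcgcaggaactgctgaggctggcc
Foxo1, chr3:52268087-52268336, plus strand: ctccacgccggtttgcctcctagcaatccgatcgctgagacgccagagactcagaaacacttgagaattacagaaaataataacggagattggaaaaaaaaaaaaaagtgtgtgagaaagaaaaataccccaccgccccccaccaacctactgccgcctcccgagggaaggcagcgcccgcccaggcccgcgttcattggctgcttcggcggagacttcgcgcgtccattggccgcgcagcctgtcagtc
Pik3ip1, chr11:3330481-3330730, plus strand: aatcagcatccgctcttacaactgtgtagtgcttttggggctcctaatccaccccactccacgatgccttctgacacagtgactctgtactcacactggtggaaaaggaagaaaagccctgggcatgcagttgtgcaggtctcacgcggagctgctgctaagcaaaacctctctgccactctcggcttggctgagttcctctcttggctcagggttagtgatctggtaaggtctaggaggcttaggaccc

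Values are mean coverage per gene as deposited, scaled between libraries, and summed coverage per library ran from 1277310 to 1885770; how many reads lie behind a value is not known. The targeted genes followed the labels: over WT, Eμ-Myc and knockout libraries Prps2 averaged 125 ± 19.8, 246 ± 36.5 and 17.1 ± 0.857 and Myc 272 ± 52.8, 1915 ± 311 and 2279 ± 1042 (SD, 4 libraries a group). The B-cell marker Cd79a, a subunit of the antigen receptor, ran from 1240 to 2322 over all 12 libraries. The sum of 9 B-cell markers ran from 16215 to 26790 in WT and from 14830 to 19556 in Eμ-Myc, and was 16754, 16908, 11002 and 11407 in knockout libraries 1 to 4. Of these markers Cd22 (-0.94 on the log2 scale, adjusted p 0.00534) and Cd74 (-0.50, adjusted p 0.0199) were called lower in Eμ-Myc than in WT. The knockout libraries fell into pairs: the root mean square difference over 9909 genes, on the log2 scale, was 0.29 between libraries 1 and 2 and 0.20 between libraries 3 and 4, and at least 1.10 between the pairs. Among the Eμ-Myc libraries it ran from 0.28 to 0.53 and among the WT libraries from 0.23 to 0.64. Results for the knockout group are therefore also given without libraries 1 and 2 and without libraries 3 and 4.

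The summed coverage of 14 T-cell markers, none of them at 0, was 2037, 1342, 1536 and 5930 in WT libraries 1 to 4, between 474 and 573 in Eμ-Myc, and 1394, 1604, 263 and 263 in knockout libraries 1 to 4. T-cell marker RNA was highest in WT library 4, and it separated knockout libraries 1 and 2 from 3 and 4. Cd3e, a subunit of the T-cell receptor complex, ran from 39.9 to 285 in WT and from 6.87 to 10.01 in Eμ-Myc, and was at 48.5, 71.8, 0.555 and 0.666 in the knockout libraries. The summed NK-cell markers, 10 genes with none at 0, ran from 447 to 1763 in WT, from 113 to 315 in Eμ-Myc and from 28.8 to 742 in the knockout group. Myeloid markers, 13 genes with none at 0, overlapped between the groups, at 9111 to 26960, 6249 to 18254 and 1578 to 16870. The summed markers of mature B cells, 9 genes with none at 0, ran from 6637 to 10210 in WT and from 3062 to 3982 in Eμ-Myc. Those of immature B cells, 11 genes of which Vpreb2 was at 0 in most libraries, ran from 536 to 1069 and from 1420 to 2128. The gap between the immature sums came largely from Vpreb3, at 284 to 707 in WT and 1215 to 1900 in Eμ-Myc. Of the 10 immature markers tested, 6 were called higher in Eμ-Myc, Vpreb3 among them. Il7r (-2.39 on the log2 scale) and Lef1 (-1.49) were called lower. In bulk RNA, fewer cells of a type and less RNA per cell cannot be told apart, and the part of cell composition in the results below was not tested.

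In Eμ-Myc against WT, RNA of the 3 FOXO factors, of the PI3K catalytic subunit gene Pik3cd and of the PI3K brake Pik3ip1 was lower, and RNA of Akt1 was higher. Of the 9 genes, 6 passed the test (limma, threshold 0.05 after Benjamini-Hochberg adjustment over every gene tested), 1 higher and 5 lower. The background was high: 55.1% of the 12723 genes tested passed, 30.4% higher and 24.7% lower. Of these calls 55.2% were higher, against 50.5% with median-of-ratios scaling and 42.0% with scaling by total coverage, which moved the median of all genes by -0.18. The 6 of 9 is therefore near the share over all genes, and the sizes and directions are described gene by gene. The groups did not overlap for 5 of the 9, against 51.4% of all genes tested.

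Foxo1, the FOXO factor on which B-cell development depends most, lies at chr3:52268336-52353221 (GRCm38, plus strand) and fell most. Its scaled coverage was 72.6, 114, 109 and 128 in WT libraries 1 to 4 and 45.8, 43.0, 40.1 and 40.2 in Eμ-Myc libraries 1 to 4. Every WT library was above every Eμ-Myc library, and the Eμ-Myc libraries lay close together. The mean went from 106 ± 23.7 to 42.3 ± 2.71 (SD, n = 4 each), which is 39.9% of the WT mean, with a log2 fold change of -1.29 (SE 0.17, adjusted p 1.83e-04). Without any 1 library the log2 fold change stayed between -1.46 and -1.19 and kept passing. The mature B-cell markers fell in the same comparison (9 of 9 tested were called lower), and their part in the change of Foxo1 was not tested.

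Foxo3 and Foxo4 are the other FOXO factors of the list, and their reductions were smaller. Foxo3 (chr10:42181841-42276755, minus strand) was at 22.8, 13.6, 22.9 and 18.2 in WT and at 15.4, 6.10, 12.9 and 12.5 in Eμ-Myc. The groups overlapped, since Eμ-Myc library 1 was above WT library 2, and Eμ-Myc library 2 was the lowest. The log2 fold change was -0.74 (SE 0.28), and the adjusted p of 0.0496 lay at the threshold. That call was lost without WT library 1, 3 or 4 and without Eμ-Myc library 2, 3 or 4, with an adjusted p of at most 0.116, and the log2 fold change was -0.47 without Eμ-Myc library 2. Foxo4 (chrX:101254528-101260873, plus strand) was at 25.1, 31.8, 24.2 and 27.3 in WT and at 21.4, 18.2, 19.5 and 20.2 in Eμ-Myc, with no overlap. Its log2 fold change was -0.44 (SE 0.12, adjusted p 0.0137), and the Eμ-Myc mean was 73.1% of the WT mean.

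**Figure D1:**
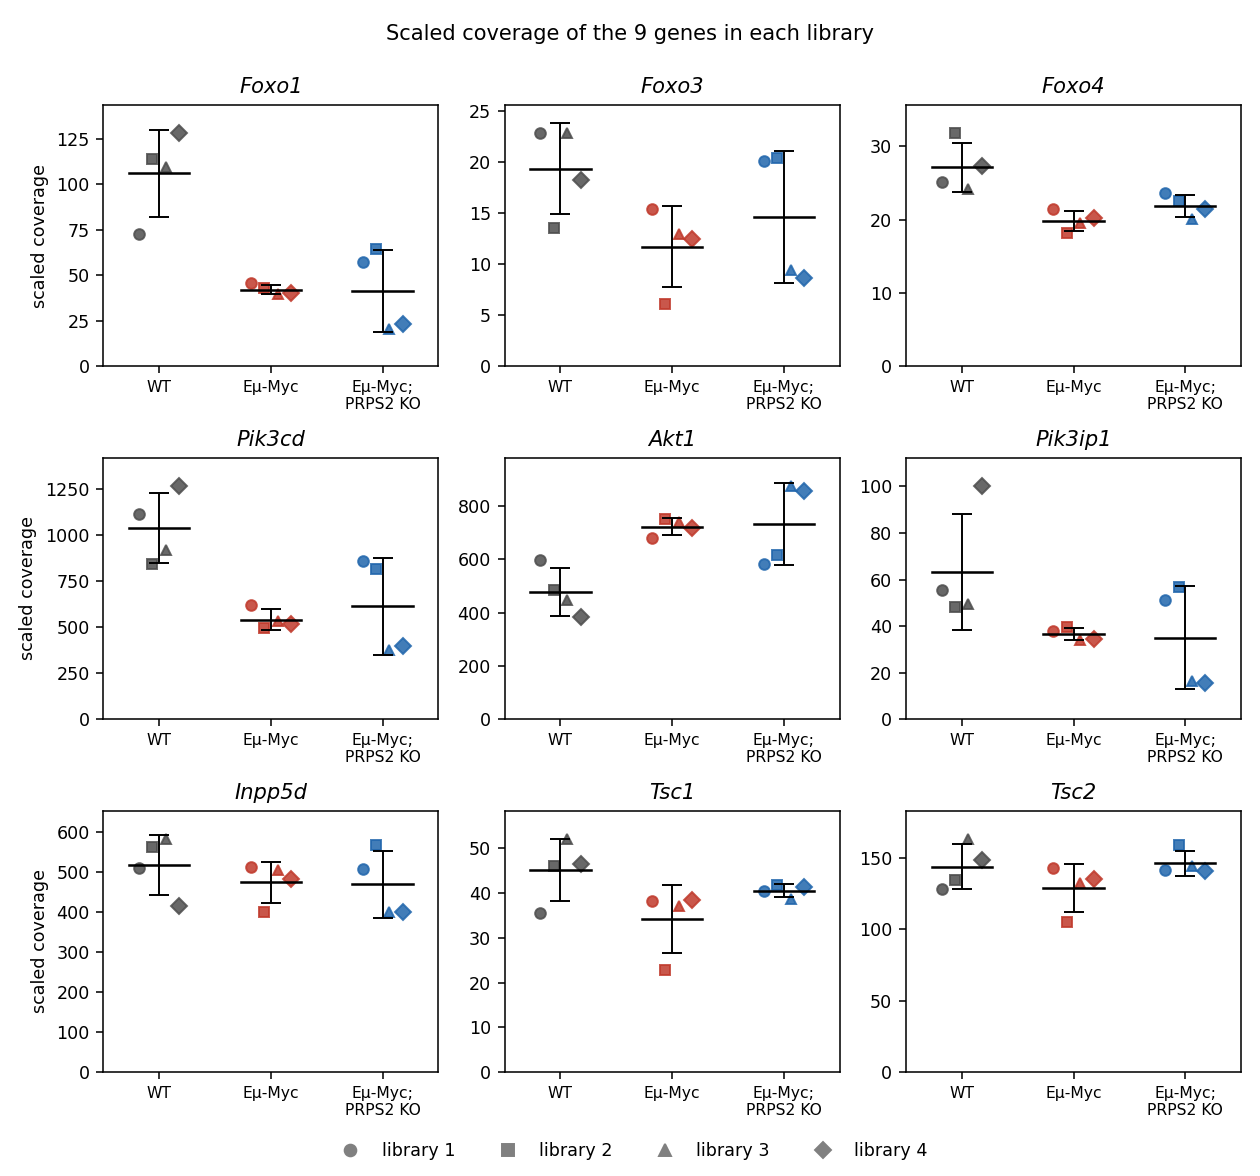
Scaled coverage of each of the 9 genes (vertical axes, linear, starting at 0) in WT, Eμ-Myc and Eμ-Myc; PRPS2 KO libraries; marker shapes give the library number, the horizontal bar the group mean and the whiskers 1 SD (n = 4). The WT libraries of Foxo1 sit between 72.6 and 128, all above the Eμ-Myc libraries, and the knockout libraries of Foxo1, Pik3cd and Pik3ip1 sit in a high pair (1 and 2) and a low pair (3 and 4).

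The 2 kinases moved in opposite directions. Pik3cd (chr4:149649168-149702571, minus strand) encodes p110 delta, the PI3K catalytic subunit that lymphocytes use most. It was at 1112, 845, 920.5 and 1267 in WT libraries and at 619, 493, 533 and 518 in Eμ-Myc libraries, with no overlap. The difference was -0.92 on the log2 scale (SE 0.14, adjusted p 5.19e-04), leaving 52.2% of the WT mean. Akt1 (chr12:112653821-112674884, minus strand) encodes the kinase that phosphorylates FOXO factors and TSC2. It was at 598, 485, 447 and 383 in WT and at 681, 751, 740.2 and 717 in Eμ-Myc, so that every Eμ-Myc library was above every WT library. Its log2 fold change was 0.61 (SE 0.13, adjusted p 0.00379), and its mean was 151% of the WT mean. Akt1 was the only 1 of the 9 genes called higher.

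Of the brakes on PI3K, Pik3ip1 passed the test and Inpp5d did not; the difference between them was not tested. Pik3ip1 (chr11:3330401-3342971, plus strand) encodes a transmembrane protein that binds the PI3K catalytic subunit and inhibits it. It was at 55.3, 48.4, 49.4 and 100.3 in WT and at 37.7, 39.7, 34.2 and 34.7 in Eμ-Myc. The groups did not overlap, and WT library 4 stood far above the other WT libraries. The log2 fold change was -0.72 (SE 0.22, adjusted p 0.0188), and without WT library 4 it was -0.48 with an adjusted p of 0.00650. The call was lost when the 12 libraries were fitted together (adjusted p 0.164). WT library 4 was also the library with the highest T-cell marker sum, and the part of T-cell RNA in its Pik3ip1 value was not tested. Inpp5d (chr1:87620312-87720507, plus strand) encodes SHIP1, a phosphatase that removes the phospholipid made by PI3K. It was at 509, 563, 583 and 414 in WT and at 511, 399.6, 505 and 482 in Eμ-Myc, with overlapping groups. Its log2 fold change was -0.12 (95% interval -0.42 to 0.18, adjusted p 0.471), which did not pass, and lay between -0.22 (without WT library 4) and -0.039 (without Eμ-Myc library 2) on leaving out 1 library.

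Neither gene of the TSC complex passed the test. Tsc1 (chr2:28641228-28691167, plus strand), the stabilising subunit, was at 35.6, 46.0, 52.2 and 46.4 in WT and at 38.3, 22.7, 37.2 and 38.5 in Eμ-Myc. The groups overlapped, and Eμ-Myc library 2 lay far below the rest of its group. The log2 fold change was -0.41 (95% interval -0.84 to 0.02, adjusted p 0.0940), and it passed when libraries were scaled by total coverage (-0.59, adjusted p 0.0467) or weighted by quality (-0.36, adjusted p 0.0210). Leaving out 1 library gave -0.52 to -0.23 (adjusted p 0.0502 to 0.207), with the value nearest 0 found without Eμ-Myc library 2. Tsc2 (chr17:24595816-24632630, minus strand), the subunit that inactivates the small GTPase RHEB upstream of mTORC1, was at 128, 134, 163 and 149 in WT and at 143, 105, 132 and 135 in Eμ-Myc. Its log2 fold change was -0.16 (95% interval -0.44 to 0.12, adjusted p 0.304), and -0.21 to -0.063 on leaving out 1 library, nearest 0 without Eμ-Myc library 2.

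The annotation places other transcripts within some of these genes. In GENCODE M21 an antisense transcript overlaps Foxo1 over 1001 bases, an unclassified transcript on the same strand overlaps it over 2069, and a processed transcript on the opposite strand overlaps Pik3ip1 over 778. The gene Pkd1 overlaps Tsc2 over 693 bases on the opposite strand. The library kit keeps strand, but the sources used here do not say whether counting used it, so reads in those stretches cannot be assigned with certainty.

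In the knockout group against Eμ-Myc, none of the 9 genes passed the test, and the fold changes were between -0.30 and 0.27 on the log2 scale. Over all genes 1 of 12551 was called (0.00797%), Prps2 itself, and 121 had an unadjusted p under 0.05; none of those was among the 9. The knockout libraries were spread widely around their means. Foxo1 was at 57.3, 64.4, 20.8 and 23.4 in knockout libraries 1 to 4, so that libraries 1 and 2 were above all Eμ-Myc libraries and libraries 3 and 4 below all of them. The mean of 41.5 ± 22.6 was 98.1% of the Eμ-Myc mean, and the log2 fold change of -0.20 had a 95% interval from -1.05 to 0.65. The adjusted p was 1.00 for each of the 9 genes, which does not show that the groups were alike.

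Pik3ip1 and Pik3cd had the same arrangement of libraries. Pik3ip1 was at 51.4, 56.6, 16.5 and 15.8, with a log2 fold change against Eμ-Myc of -0.30 (95% interval -1.30 to 0.70). Pik3cd was at 861, 814, 376 and 397, with a log2 fold change of 0.08 (95% interval -0.61 to 0.76). Akt1 was arranged the other way, at 582, 615, 876 and 855, with libraries 1 and 2 below and libraries 3 and 4 above all Eμ-Myc libraries, and a log2 fold change of -0.0045 (95% interval -0.38 to 0.37). Foxo3 was at 20.1, 20.4, 9.44 and 8.65, with libraries 1 and 2 above all Eμ-Myc libraries and the other two within their range (log2 fold change 0.27, 95% interval -0.61 to 1.16). In the same order the T-cell marker sums were 1394, 1604, 263 and 263, and the summed mature B-cell markers 5052, 4507, 1397 and 1407. The NK-cell sums were 742, 547, 28.8 and 29.3, the myeloid sums 16870, 12615, 3274 and 1578, and the plasma-cell sums 495, 598, 245 and 275. Immature B-cell sums went the other way, at 1069, 1190, 1749 and 1618. Vpreb3 made up most of these sums, at 802, 879, 1553 and 1427, and Sox4 and Igll1 went the same way. Rag1, Il7r (84.9, 99.7, 7.66 and 5.99) and Lef1 of that list were instead higher in libraries 1 and 2. The other genes of the list did not follow the pairs. Of the plasma-cell markers, Jchain (184, 234, 2.00 and 2.44), Xbp1, Prdm1 and Tnfrsf17 were higher in libraries 1 and 2. Sdc1 (6.80, 7.78, 12.3 and 10.1) and Irf4 (113, 136, 139 and 168) were instead higher in libraries 3 and 4. Erythroid sums were also higher in libraries 3 and 4, at 109.8, 95.4, 132 and 139.6, while platelet sums did not follow the pairs (142, 41.5, 37.2 and 40.4). Myc was at 1099, 1718, 3017 and 3282, with libraries 3 and 4 above all Eμ-Myc libraries (1559 to 2302). The part of these differences in the values of the 9 genes was not tested.

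Foxo4, Inpp5d, Tsc1 and Tsc2 varied less over the knockout libraries. Foxo4 was at 23.6, 22.5, 20.1 and 21.4 (log2 fold change 0.14, 95% interval -0.13 to 0.41), overlapping with Eμ-Myc. Its libraries 1 and 2 were above all Eμ-Myc libraries and library 3 within their range. Inpp5d was at 508, 569, 399.8 and 401 (-0.03, 95% interval -0.39 to 0.34). For both Foxo4 and Inpp5d, libraries 1 and 2 were above libraries 3 and 4. Tsc1 was at 40.4, 41.7, 38.6 and 41.4, just above the highest Eμ-Myc library, and was the single 1 of the 9 genes without overlap, against 1.53% of all genes tested. The difference of 0.27 (95% interval -0.14 to 0.69) did not pass. Tsc2 was at 141, 159, 144 and 140.4 (0.19, 95% interval -0.10 to 0.48).

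Which knockout libraries were kept decided the calls. Without libraries 1 and 2, 3 of the 9 genes were called lower than in Eμ-Myc: Foxo1 at -0.92 (adjusted p 0.00304), Pik3ip1 at -1.15 (adjusted p 0.00138) and Pik3cd at -0.48 (adjusted p 0.0245). Without libraries 3 and 4 the sign turned, with Pik3cd at 0.63 (adjusted p 0.0458) called higher and Foxo1 at 0.52 (adjusted p 0.0557) and Pik3ip1 at 0.56 (adjusted p 0.0520) not called. Over all genes these settings called 3495 genes (28.7%) and 524 (4.21%). The pairs of libraries were picked from the data and are no groups of the study.

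**Figure D2:**
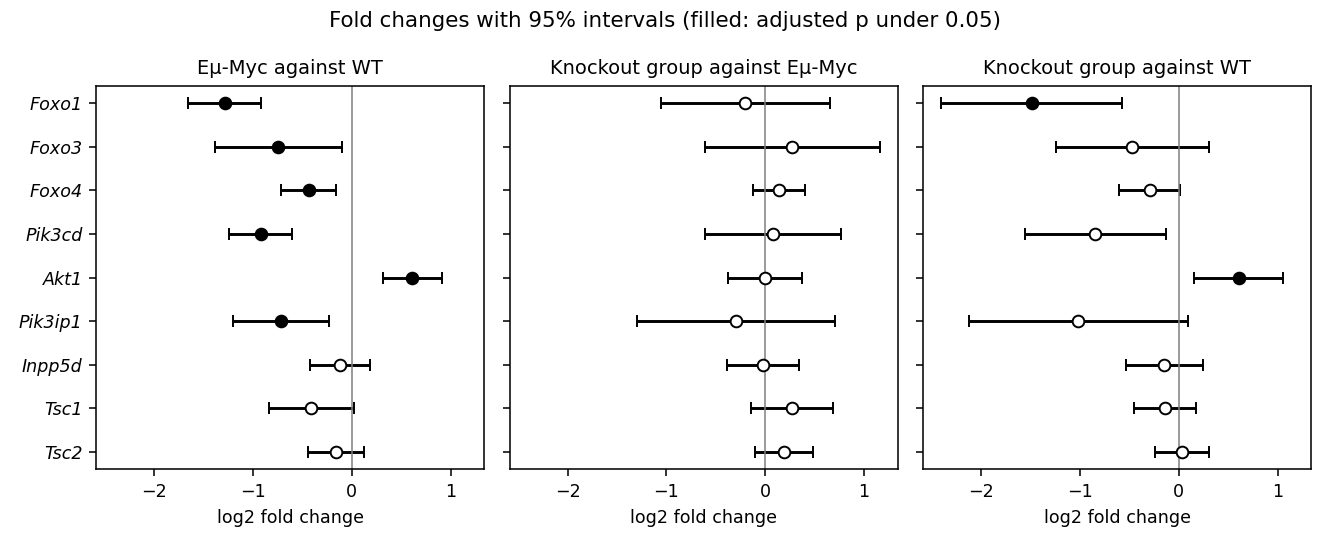
Log2 fold change (horizontal axes) with its 95% interval from limma for each of the 9 genes in the 3 comparisons; filled points have an adjusted p under 0.05. In Eμ-Myc against WT 6 points are filled, in the knockout group against Eμ-Myc none is and all 9 intervals cross 0, and in the knockout group against WT Foxo1 and Akt1 are filled.

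In the knockout group against WT, Foxo1 was lower and Akt1 higher, and the other 7 genes did not pass. Both calls were lost when the replicate number was fitted as a block, though same-numbered libraries did not all deviate together. This comparison uses the same WT libraries as the first. Foxo1 had a log2 fold change of -1.49 (SE 0.40, adjusted p 0.0337) with no overlap, and Akt1 one of 0.61 (SE 0.20, adjusted p 0.0495) with overlapping groups, since WT library 1 was above knockout library 1. The calls were 2 of 9, against 29.3% of 12692 genes tested, 19.7% higher and 9.6% lower. Foxo1 and Foxo4 were the 2 of 9 whose groups did not overlap, against 37.1% of all genes. Foxo4 was at -0.30 (adjusted p 0.108), Foxo3 at -0.47 (adjusted p 0.271), Pik3cd at -0.85 (adjusted p 0.0671) and Pik3ip1 at -1.02 (adjusted p 0.121). Inpp5d was at -0.14, Tsc1 at -0.14 and Tsc2 at 0.03. Of these 7 genes, only Pik3cd had a 95% interval that did not cross 0 (-1.56 to -0.13). The call of Akt1 was lost with median-of-ratios scaling (adjusted p 0.0590), total scaling (0.0524), a pseudocount of 0.1 (0.0504) and no filter (0.0633). Neither Foxo1 nor Akt1 passed when any 1 of the 4 WT libraries, or knockout library 3 or 4, was left out. The adjusted p then reached 0.0919 for Foxo1 and 0.134 for Akt1. On leaving out 1 library the log2 fold changes stayed between -1.76 and -1.22 for Foxo1 and between 0.51 and 0.72 for Akt1. Without knockout libraries 1 and 2 there were 5 calls, beside 70.1% of all genes tested under that setting, among them Pik3ip1 at -1.87 and Pik3cd at -1.40. Without libraries 3 and 4 there was none, beside 10.6% of all genes. Over all genes, leaving out any 1 WT library or knockout library 3 or 4 gave 600 to 1256 calls, beside 3716 with every library. Leaving out knockout library 1 gave 6633.

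The order of the group means differed between the genes. For Foxo1, Pik3cd and Pik3ip1 the WT mean was highest, and the means of the transgenic groups differed by less than the SD of the knockout group (42.3 and 41.5 for Foxo1, 541 and 612 for Pik3cd, 36.6 and 35.1 for Pik3ip1). The knockout mean lay between the others for Pik3cd and also for Foxo3 (19.4 ± 4.43, 11.7 ± 3.98 and 14.7 ± 6.49 for WT, Eμ-Myc and knockout libraries), Foxo4 (27.1 ± 3.38, 19.8 ± 1.33 and 21.9 ± 1.49) and Tsc1 (45.1 ± 6.88, 34.2 ± 7.65 and 40.5 ± 1.38). For Akt1 the WT mean was lowest, at 478 ± 89.9 beside 722 ± 31.1 and 732 ± 155. The means of Inpp5d were 517 ± 75.8, 474 ± 51.4 and 469 ± 83.4 and differed by less than any of these SDs. For Tsc2 they were 144 ± 15.8, 129 ± 16.7 and 146 ± 8.75, with the knockout mean highest and above that of Eμ-Myc by more than either SD.

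Across the 12 libraries, likeness was measured as the root mean square difference of log2 values, each gene centred on its own mean, with 9908 other genes compared; the libraries share their depth and cell composition, so this is a description. Among the 9 genes the smallest differences were between Tsc1 and Tsc2 (0.16), Inpp5d and Tsc2 (0.19), Foxo4 and Tsc1 (0.21), Foxo4 and Tsc2 (0.22), Foxo4 and Inpp5d (0.22) and Inpp5d and Tsc1 (0.25), genes whose levels varied little over the libraries. Next came Pik3ip1 and Pik3cd (0.29), Foxo3 and Pik3cd (0.33), Foxo1 and Pik3ip1 (0.36) and Foxo1 and Pik3cd (0.37). Other genes were nearer than these partners: of 9908 genes, Pik3cd ranked 59 by its distance to Pik3ip1, 271 to Foxo3 and 384 to Foxo1, and by distance to Pik3cd, Pik3ip1 ranked 686, Foxo3 1013 and Foxo1 1387. The distance between Akt1 and Foxo1 was 1.15. The genes outside the 9 nearest to Foxo1 were Taf9b (0.14), Dusp10 (0.15) and H2-T10 (0.16), and Taf9b went from 28.0 ± 4.18 in WT to 11.1 ± 0.645 in Eμ-Myc, with 10.9 ± 5.75 over the knockout libraries. Nearest to Foxo3 were Fam13b (0.16), Vps13d (0.17) and Gfpt1 (0.19). Nearest to Pik3ip1 were Spata6 (0.18), Pdcd4 (0.19) and Sfxn3 (0.20), and Pdcd4 went from 523 ± 124 to 313 ± 42.8 and 322 ± 162.

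**Figure D3:**
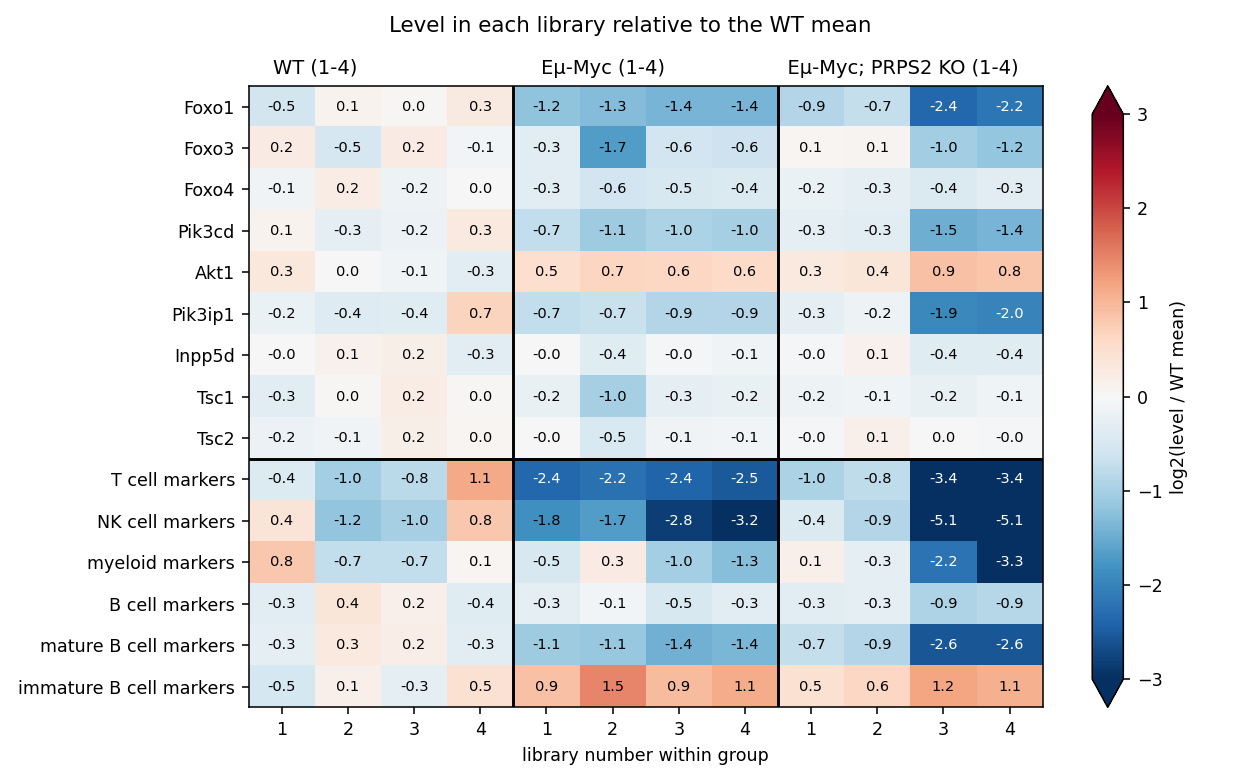
Log2 of the level in each of the 12 libraries over the WT mean (colour and printed value) for the 9 genes, above the line, and for the summed markers of 6 cell types and stages, below it; the colour scale ends at 3 in either direction. In knockout libraries 3 and 4 Foxo1, Pik3cd and Pik3ip1 and the T-cell, NK-cell and mature B-cell marker sums are all below knockout libraries 1 and 2, and Akt1 is above them.

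Genes known from other work as direct or likely FOXO targets were mostly lower in Eμ-Myc than in WT. Of 35 listed, 34 were tested, 4 were called higher and 20 lower (30.4% and 24.7% of all genes), and their median log2 fold change was -0.66 beside -0.01 over all genes tested. Il7r, the interleukin 7 receptor, was at 122, 46.4, 73.0 and 378 in WT and at 24.1, 17.3, 22.6 and 20.5 in Eμ-Myc (log2 fold change -2.39, SE 0.55, adjusted p 0.00566). All WT libraries were higher, WT library 4 most of all. Il7r is also made by T cells, and WT library 4 had the highest T-cell marker sum. Bcl6, a repressor needed for germinal centre B cells, fell by 2.10 on the log2 scale (SE 0.28, adjusted p 2.43e-04), from 82.9 ± 20.3 to 19.4 ± 6.97. Irs2, an adaptor that brings PI3K to the insulin receptor, fell by 1.42 (SE 0.22, adjusted p 5.33e-04).

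Other targets rose. Rag1, which encodes a subunit of the recombinase of immature B cells, was at 1.49, 3.47, 3.01 and 3.69 in WT and at 29.3, 18.3, 26.2 and 32.6 in Eμ-Myc (log2 fold change 3.01, SE 0.27, adjusted p 2.40e-05). Sod2, the mitochondrial superoxide dismutase, rose by 0.74 (SE 0.10, adjusted p 2.02e-04) and Gadd45b, a stress-induced gene, by 0.55 (SE 0.16, adjusted p 0.0151). The list mixes genes that mark stages: Rag1, Rag2 and Il7r are also on the immature B-cell marker list, of which 6 of 10 tested were called higher and 2 lower, and Ccr7 is also on the mature one. Some were singled out by role after their values were seen. The homing and recirculation genes Ccr7 (-1.24), S1pr1 (-1.32) and Klf2 (-0.70) were called lower. Of genes that restrain the cell cycle, Cdkn1b (-0.79), Btg1 (-1.40) and Rbl2 (-0.79) were called lower, and Ccng2 (-0.23, adjusted p 0.147), Cdkn2d (-0.31, adjusted p 0.248) and Gadd45a (-0.45, adjusted p 0.407) did not pass.

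Of 38 further genes of PI3K and AKT signalling, 36 were tested, 2 were called higher and 17 lower in Eμ-Myc against WT, beside 30.4% and 24.7% of all genes, with a median of -0.38. Inpp4b, a phosphatase that acts on a product of PI3K signalling, went from 45.4 ± 35.5 to 5.17 ± 1.86 (log2 fold change -2.83, SE 0.46, adjusted p 9.17e-04). Dok2, an adaptor that dampens receptor signalling in blood cells, went from 36.4 ± 24.8 to 8.10 ± 3.05 (-1.93, SE 0.49, adjusted p 0.00934), and Rictor, a subunit of the mTORC2 complex that phosphorylates AKT, from 20.0 ± 3.83 to 7.75 ± 1.83 (-1.32, SE 0.21, adjusted p 5.95e-04). The WT spread of both Inpp4b (29.1, 21.8, 32.6 and 98.2) and Dok2 (42.5, 17.3, 16.7 and 69.0) was wide. Library 4 was highest for both and had the highest T-cell and NK-cell marker sums, and library 1, second for Dok2, was also second in both sums. In the knockout libraries Inpp4b was at 19.4, 25.6, 0.555 and 0.666. The part of T-cell and NK-cell RNA was not tested. Inppl1, which encodes the SHIP2 phosphatase, rose by 0.75 (SE 0.15, adjusted p 0.00221) and Pik3r2, a regulatory subunit of PI3K, by 0.54 (SE 0.15, adjusted p 0.0118).

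Of 41 genes of the mTORC1 list, 39 were tested, 12 were called higher and 7 lower, beside 30.4% and 24.7% of all genes, with a median of 0.15; with scaling by total coverage the median was -0.03, with 8 higher and 12 lower, and with median-of-ratios scaling 0.09, with 10 and 11, so the balance of this list turns with the scaling. Eif4ebp1, the translation repressor that mTORC1 phosphorylates, rose by 0.84 (SE 0.26, adjusted p 0.0235), Seh1l, of the GATOR2 complex that relays amino acid supply, by 0.72 (SE 0.11, adjusted p 4.67e-04), and Tbc1d7, the remaining subunit of the TSC complex, by 0.69 (SE 0.10, adjusted p 4.35e-04). Tbc1d7 was at 24.7 ± 1.56 in WT and 40.3 ± 2.89 in Eμ-Myc, beside Tsc1 and Tsc2 that did not pass. Ddit4, an inhibitor of mTORC1 induced by stress, fell by 0.96 (SE 0.17, adjusted p 0.00109). Sesn2, a leucine sensor, fell by 0.94 (SE 0.31, adjusted p 0.0286) and Fnip1, a partner of folliculin, by 0.61 (SE 0.17, adjusted p 0.0138). The groups overlapped for Eif4ebp1 and Sesn2, and not for Seh1l, Tbc1d7, Ddit4 and Fnip1.

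The 7 genes of the 14-3-3 family, whose proteins hold phosphorylated FOXO factors in the cytoplasm, were all tested, and 4 were called higher and 1 lower, beside 30.4% and 24.7% of all genes, with a median of 0.34. Ywhae was at 324, 329, 292 and 287 in WT and at 599.7, 650, 683 and 721 in Eμ-Myc (log2 fold change 1.11, SE 0.10, adjusted p 2.08e-05), with a wide gap between the groups. Ywhaq rose by 0.58 (SE 0.11, adjusted p 0.00136) and Ywhah by 0.47 (SE 0.10, adjusted p 0.00370). Sfn, a member of the family known mainly from epithelia, fell by 1.08 (SE 0.17, adjusted p 6.59e-04). The median of the list stayed above 0 under the other scalings, at 0.27 and 0.15, with 3 called higher and 1 lower under each.

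**Figure D4:**
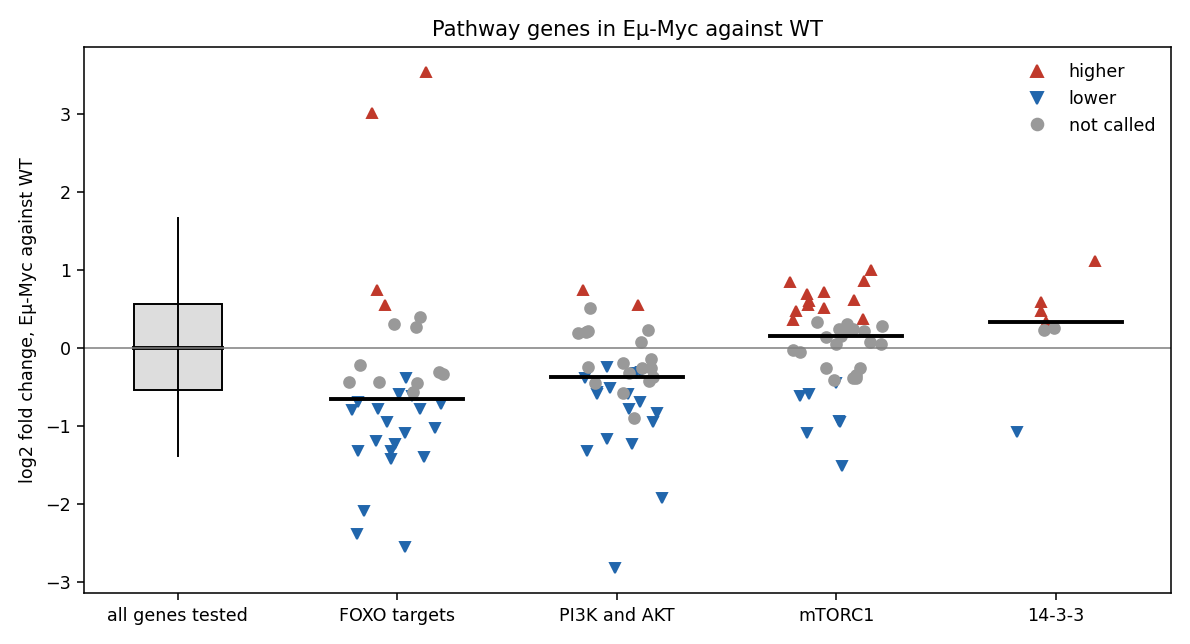
Log2 fold change in Eμ-Myc against WT (vertical axis) for each tested gene of the 4 pathway lists, with red upward triangles called higher, blue downward triangles called lower, grey circles not called and a black bar at each list's median; the box at left shows the quartiles of all 12723 genes tested and its whiskers the 5th and 95th percentiles. The bars lie at -0.66 for FOXO targets, -0.38 for PI3K and AKT, 0.15 for mTORC1 and 0.34 for 14-3-3 genes.

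In the knockout group against Eμ-Myc no gene of the 4 lists was called by limma, beside 0.00797% of all genes. Of the list genes 1 had an unadjusted p under 0.05, beside 121 of the 12551 genes tested. The medians were -0.13, 0.04, 0.01 and -0.04 for FOXO targets, PI3K and AKT, mTORC1 and 14-3-3 genes. The smallest p among list genes belonged to the recombinase genes, which did not pass. Rag2 was at 7.85, 9.37, 9.04 and 10.03 in Eμ-Myc and at 4.98, 6.74, 5.88 and 5.55 in the knockout group, without overlap (log2 fold change -0.61, SE 0.17, unadjusted limma p 0.00594, adjusted p 1.00). Rag1 was at 22.04, 27.6, 8.44 and 10.2 in the knockout group (-0.76, SE 0.39, unadjusted limma p 0.0872, adjusted p 1.00). The pairs of knockout libraries showed in the lists too. Libraries 1 and 2 were both above libraries 3 and 4 for 31 of 34 FOXO targets, 22 of 36 PI3K and AKT genes, 10 of 39 mTORC1 genes and 1 of 7 genes of the 14-3-3 family, beside 41.3% of all genes tested. They were both below libraries 3 and 4 for 2, 8, 25 and 6 genes of these lists, beside 46.0% of all genes.

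In the knockout group against WT, 3 of 34 FOXO targets tested were called higher and 9 lower, beside 19.7% and 9.6% of all genes, with a median of -0.74 beside -0.01 over all genes. The higher ones were Rag1 (2.26, adjusted p 0.0151), Rag2 (2.92, adjusted p 0.00179) and Sod2 (0.71, adjusted p 0.0388); the genes of this paragraph were named after their values were seen. Of 36 PI3K and AKT genes 1 was higher and 2 lower (1 and 8 with median-of-ratios scaling, 1 and 6 with scaling by total coverage), namely Inppl1 (0.83, adjusted p 0.0202), Rictor (-1.07, adjusted p 0.0379) and Sgk3 (-0.88, adjusted p 0.0304), the last a kinase related to AKT. Of 39 mTORC1 genes 6 were higher and 5 lower (3 and 6 with scaling by total coverage), and of the 7 genes of the 14-3-3 family Ywhae was higher (1.07, adjusted p 0.0224) and Sfn lower (-1.33, adjusted p 0.0217). These counts moved with single libraries: without knockout library 1 there were 21, 17 and 19 calls among FOXO targets, PI3K and AKT genes and mTORC1 genes, beside 53.2% of all genes. Without knockout library 3 or 4 there were 3, 0 and 0, beside 5.62% and 5.11%. Without any 1 WT library they were at most 6, 3 and 1, beside 4.78% to 10.01%.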

How the data were processed

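For every library the authors deposited a table of gene symbols and mean coverage, a signal given to 1 decimal, per the files themselves. Since 91.6% of non-zero entries were fractional, no count test was used. The submitters' processing notes name mm10, DESeq and R 4.3.3; aligner and counting step are not given in the sources used here. Libraries were scaled by unweighted trimmed means of log ratios (trimming 30% of ratios and 5% of means per end). A gene entered a comparison if 4 or more of its 8 libraries reached a scaled value of 1. Tests used limma 3.58.1 (R 4.3.3; trended prior, robust) on log2(scaled coverage + 0.5), a scale that understates changes of low genes. Tests were two-sided, and p-values were adjusted over all genes of a comparison (Benjamini-Hochberg, threshold 0.05). Read depth is unknown, so precision is the spread between 4 libraries. The procedure was tested on simulated data. Members and gene lists were chosen with earlier results of these data known. Named list genes were, in Eμ-Myc against WT, up to 3 called genes per direction with the largest changes and a mean of at least 8, and the 2 list genes of smallest p when the transgenic groups were compared. Genes nearest to Foxo1, Foxo3 and Pik3ip1 were the 3 with the smallest difference. Some genes the rule or lists hold are not reported here. Positions come from GENCODE M21 (GRCm38), promoters from RefSeq. Same-numbered libraries of the knockout group and Eμ-Myc deviated together (r 0.73, 0.21, 0.30 and 0.70, across genes), though libraries 2 and 3 correlated best with another number; a replicate block was tried, and the pairing comes from the values alone. Other scalings, pseudocounts of 0.1 and 2, other filters, all 12 libraries in one fit, quality weights and left-out libraries were also tried.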

Additional observations from a re-analysis of the deposited data

Results flagged for a closer look

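Within the groups of 4 libraries, 2 of 27 sets of values held a library far from the other 3 (by Dixon's 95% limit on its gap to the nearest over the whole range); chance flags about 1 in 20. Pik3ip1 in WT library 4 was at 100.3, while the other WT libraries ran from 48.4 to 55.3. Tsc1 in Eμ-Myc library 2 was at 22.7, while the others ran from 37.2 to 38.5.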

How the results depend on the processing

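In Eμ-Myc against WT the calls of Foxo1, Foxo4, Pik3cd and Akt1 held under all 17 alternatives. Pik3ip1 lost its call with all 12 libraries in one fit (adjusted p 0.164). Foxo3 lost it in 9 of 16 and was not tested under the filter of 10 in every library. Scaling by total coverage moved the median of all genes by -0.18 and the share of higher calls from 55.2% to 42.0%. The PI3K and AKT calls were 11 with 12 libraries in one fit (42.9% of all genes called) and 30 with quality weights (69.2%). Leaving out 1 library gave 5770 to 6857 calls, 5 to 6 of the 9 genes, and 21 to 26, 14 to 21 and 15 to 22 calls in the FOXO target, PI3K and mTORC1 lists.

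In the knockout group against Eμ-Myc, quality weights (0.0817 and 0.129 for knockout libraries 1 and 2, 3.20 and 7.76 for 3 and 4) gave 7459 genes, 6 of the 9, and 28, 22 and 21 list calls. Without knockout libraries 1 and 2 there were 3495, 3, and 15, 13 and 4; without 3 and 4, 524, 1, and 3, 4 and 1. Signs turned for Akt1 (0.020 with median-of-ratios and 0.023 with total scaling, 0.23 with weights, 0.26 without 1 and 2), Inpp5d (0.0020 with total scaling, 0.19 without 3 and 4), Foxo3 (-0.48 with weights, -0.29 without 1 and 2), Pik3cd (-0.44 and -0.48), Foxo1 (0.52 without 3 and 4) and Pik3ip1 (0.56). Leaving out 1 library gave 1 to 1 genes and 0 to 0 of the 9 and of each list, with ranges of -0.10 to 0.10 for Akt1, -0.47 to 0.068 for Foxo1, -0.12 to 0.045 for Inpp5d, -0.12 to 0.28 for Pik3cd, -0.61 to -0.0018 for Pik3ip1, 0.00081 to 0.48 for Foxo3, 0.091 to 0.34 for Tsc1, 0.093 to 0.24 for Tsc2 and 0.10 to 0.18 for Foxo4. The replicate block called 1 gene and none of the 9.

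In the knockout group against WT, 1 of the 9, Foxo1, passed with median-of-ratios scaling, total scaling, a pseudocount of 0.1 and no filter, beside 29.9%, 29.7%, 28.1% and 17.2% of all genes. PI3K and AKT calls were 9, 7 and 9 with median-of-ratios scaling, total scaling and the filter of 10, and mTORC1 calls 6 without a filter. Total scaling moved the median of all genes by -0.15. With 12 libraries in one fit there were 5975 calls and 20, 15 and 17 in the lists; with weights 10505, 7 of the 9, and 29, 30 and 31. Without knockout libraries 1 and 2 there were 8617, 5, and 27, 22 and 26; without 3 and 4, 1323, 0, and 4, 0 and 1. The replicate block gave 1863, 0 of the 9, and 7 FOXO target and 2 mTORC1 calls, though same-numbered libraries did not all deviate together (r 0.45, -0.47, 0.17 and -0.06; against WT in Eμ-Myc 0.29, -0.11, 0.33 and 0.14). Signs turned for Tsc2 (-0.0064, -0.12, -0.041 and -0.0074 with median-of-ratios scaling, total scaling, weights and without 1 and 2), Foxo3 (0.092) and Inpp5d (0.067), both without 3 and 4. Leaving out 1 library gave 600 to 6633 calls, 0 to 3 of the 9, 3 to 21, 0 to 17 and 0 to 19 in the lists, and Tsc2 at -0.022 to 0.095. The cause of these shifts was not tested.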
